A study of Homo sapiens with 9 samples.

Results

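PAX5, EBF1, TCF3, SOX4, LEF1, IKZF1, IKZF3, POU2AF1, POU2F2 and FOXP1 are transcription factor genes that set up or maintain the B lineage. They were taken as a fixed list of 10 gene symbols, each of which matched 1 of the 58243 gene identifiers in the count files, and all 10 passed the filter on low counts. They are described here in bulk RNA-seq of DOHH2, an established human cell line derived from a transformed follicular lymphoma. The study set lymphoma cells that had grown in mouse bone marrow beside cultured cells of the same line. Of the 9 libraries, 3 came from cultured DOHH2 cells labelled day 0. The others came from DOHH2 cells of grafted RAGγc mouse femurs, 3 at day 19 and 3 at day 40.

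All groups were the same unmodified line, with no other genotype or drug named in the labels. RAGγc mice are immunodeficient hosts that accept human cells, and their marrow stroma, vessels and blood cells are of mouse origin. Femur cells went through enzyme digestion, bead depletion of mouse blood cells and a sort on human CD20, steps that the labels do not give for cultured cells. Effects of this handling and of growth in the femur cannot be told apart in a comparison with culture. The labels name neither the animals nor the cultures behind the libraries, so p-values reflect only how far these samples vary, and part of that may be technical. By the dates in the titles, read as day, month and year, the culture library of each number preceded the day 19 cells by 18, 19 and 19 days, but the day 40 cells by 11, 26 and 39 days. For numbers 1 and 2 the day 40 cells were thus taken too early for a graft on the date of the culture library, so the numbers were not taken to pair libraries.

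In B-cell development the E protein encoded by TCF3 works upstream of EBF1, and both work upstream of PAX5, which fixes the B-cell identity by switching on B-lineage genes and switching off those of other lineages. SOX4 and LEF1 are best known from progenitor B cells, where they favour survival and proliferation. The Ikaros proteins (IKZF1, IKZF3) and FOXP1 act at several stages, while the octamer-binding factor POU2F2 and its coactivator POU2AF1 (OBF1) are needed for the germinal-centre reaction, the stage that follicular lymphoma resembles. Much of this is known from mice.

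Libraries held between 21071239 and 29456271 counts, and log2 CPM correlated across genes at 0.987 or more between libraries of a group. CPM are counts per 1000000 of the TMM-scaled library size. The B-cell markers MS4A1, CD79A, CD79B, PTPRC and CD22 were all detected in each group, and these 5 had a summed level of 3380.2 to 4416 CPM in culture, 1719 to 1881 CPM at day 19 and 2273 to 2366 CPM at day 40. The erythroid genes HBB and HBA2, the stromal genes COL1A2, COL3A1, LUM, CXCL12 and POSTN and the endothelial genes CDH5, KDR and EMCN had 0 counts in all 9 libraries. The 5 endothelial markers summed to 4.42 to 7.6 CPM in culture, 1.61 to 3.12 CPM at day 19 and 3.28 to 4.24 CPM at day 40. PECAM1 made up most of this, with a mean of 5.97 CPM in culture. In the same order, 7 T and NK cell markers summed to 3.99 to 5.01, 1.23 to 1.86 and 1.35 to 2.05 CPM. For 7 myeloid markers the sums were 2.63 to 5, 4.98 to 6.29 and 2.87 to 5.69 CPM. The 9 stromal markers summed to 0.698 to 1.36 CPM in culture, 4.97 to 7.54 CPM at day 19 and 4.38 to 5.29 CPM at day 40, mainly through PDGFRB, whose mean was 5.17 ± 1.34 CPM at day 19 and 3.45 ± 0.343 CPM at day 40, against 0.0445 ± 0.0456 CPM in culture. In bulk libraries, fewer cells that express a gene and less of its RNA per cell cannot be told apart.

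The first comparisons asked how the factors stood in lymphoma cells after growth in the femur. TCF3, EBF1, PAX5 and SOX4 were higher in femur cells than in culture at day 19 and at day 40, while LEF1 and POU2AF1 were lower at both times and IKZF3 was lower at day 19. At day 19, 7 of the 10 factors were called, 4 higher and 3 lower (edgeR's quasi-likelihood test, Benjamini-Hochberg adjusted p under 0.05 over 15163 genes), where 52.8% of all genes tested were called, 26.3% higher and 26.5% lower. With total library size in place of TMM scaling, the day 19 split was 5 higher and 2 lower, since FOXP1 gained and IKZF3 lost its call. At day 40, 6 factors were called, 4 higher and 2 lower, against 46.6% of all genes, 23.3% in each direction. The share of factors called was thus not far above that of all genes, and their median log2 fold changes of -0.02 at day 19 and -0.04 at day 40 lay close to the 0.01 of all genes at each time. Among all genes at day 40, TMM scaling gave 3527 higher and 3538 lower, and total library size gave 4155 higher and 2650 lower.

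A direct comparison of the femur times asked whether the factors differed between day 40 and day 19. EBF1, TCF3 and SOX4 were lower at day 40, so that 3 of 10 were called where 4.68% of all genes were, 3.23% higher and 1.45% lower. By edgeR 0 of the 10 were higher, as by DESeq2 and by limma voom, while at an unadjusted p under 0.05 edgeR and voom each had 2 higher (IKZF3 and POU2AF1 by edgeR) and DESeq2 had 3. The median log2 fold change of the factors was -0.18, beside 0.00 over all genes. Both comparisons with day 0 used the same 3 culture libraries, so they are not independent of each other.

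**Figure D1:**
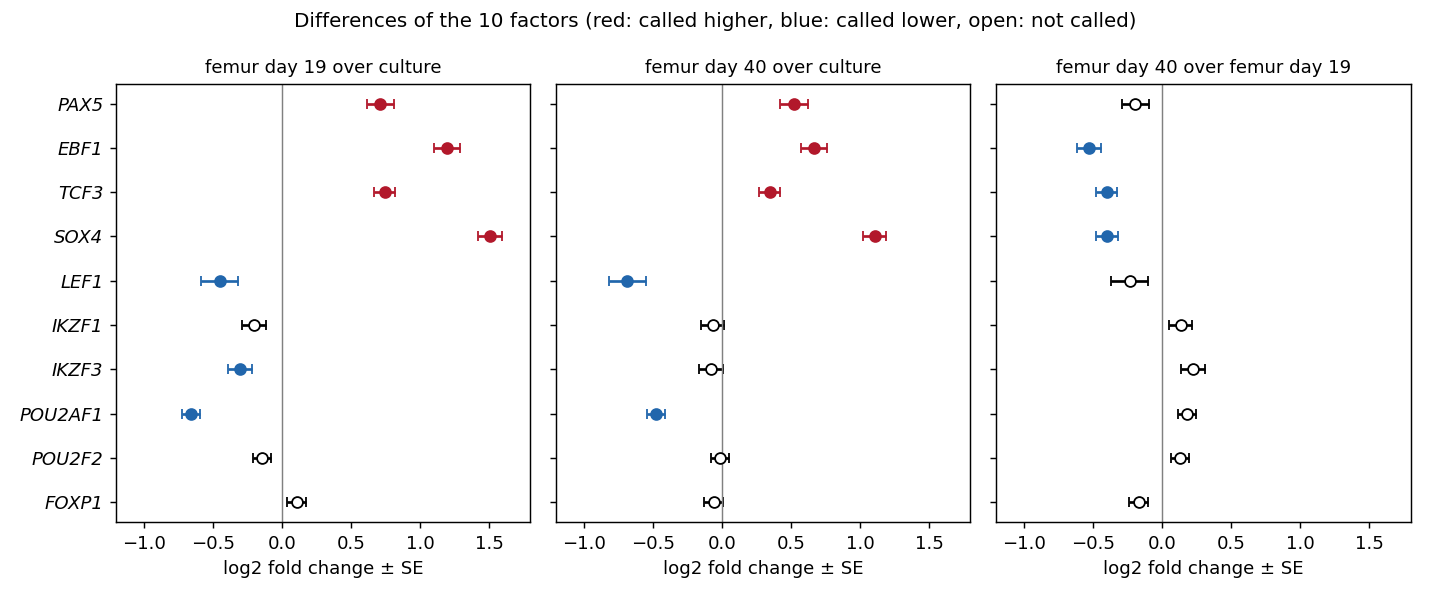
Log2 fold change with its standard error (horizontal axis) of the 10 factors in 3 comparisons, one per panel; red points were called higher, blue points lower and open points were not called. SOX4 has the largest change, 1.51 at day 19 and 1.11 at day 40 over culture, and the called points of day 40 over day 19 (EBF1, TCF3 and SOX4) are all negative.

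Promoter windows of the factors with the clearest changes are given with their E-boxes (CANNTG), the element that the protein of TCF3 binds. RefSeq entries on GRCh38.p14 matched 8 of the 10 factors, all but IKZF3 and POU2AF1. Each window of 300 bases covers the start that RefSeq gives the gene, lies mostly before that start, and is written 5′ to 3′ on the gene's strand, with E-boxes in capitals. They lie at chr9:37034219-37034518 (minus strand, PAX5), chr5:159097907-159098206 (minus, EBF1), chr19:1652566-1652865 (minus, TCF3), chr6:21593501-21593800 (plus, SOX4) and chr4:108166252-108166551 (minus, LEF1). These starts can differ from the GENCODE limits given with each gene: the TCF3 window covers the GENCODE start as well, the EBF1, SOX4 and LEF1 windows lie inside the GENCODE gene, and the PAX5 window lies wholly before it.
PAX5: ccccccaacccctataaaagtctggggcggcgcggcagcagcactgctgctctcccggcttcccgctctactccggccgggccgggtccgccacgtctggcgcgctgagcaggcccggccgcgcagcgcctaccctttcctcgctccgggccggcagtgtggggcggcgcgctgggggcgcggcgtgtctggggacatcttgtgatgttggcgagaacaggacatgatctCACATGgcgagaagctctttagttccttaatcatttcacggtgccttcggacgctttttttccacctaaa
EBF1: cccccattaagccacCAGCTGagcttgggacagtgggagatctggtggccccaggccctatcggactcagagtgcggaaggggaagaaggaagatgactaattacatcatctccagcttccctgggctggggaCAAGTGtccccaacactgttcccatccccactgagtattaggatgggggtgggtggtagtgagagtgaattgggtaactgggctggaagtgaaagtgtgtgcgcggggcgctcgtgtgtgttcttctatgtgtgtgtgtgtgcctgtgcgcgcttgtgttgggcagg
TCF3: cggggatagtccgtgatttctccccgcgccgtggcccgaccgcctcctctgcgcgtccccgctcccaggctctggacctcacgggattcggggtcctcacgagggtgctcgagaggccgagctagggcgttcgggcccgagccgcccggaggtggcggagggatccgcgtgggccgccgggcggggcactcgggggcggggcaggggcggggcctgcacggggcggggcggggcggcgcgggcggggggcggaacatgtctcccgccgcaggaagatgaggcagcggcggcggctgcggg
SOX4: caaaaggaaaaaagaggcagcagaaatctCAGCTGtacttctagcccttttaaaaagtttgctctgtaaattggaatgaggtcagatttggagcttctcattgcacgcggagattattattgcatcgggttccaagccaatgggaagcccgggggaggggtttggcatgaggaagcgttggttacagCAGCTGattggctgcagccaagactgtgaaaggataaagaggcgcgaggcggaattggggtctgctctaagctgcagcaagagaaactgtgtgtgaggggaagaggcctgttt
LEF1: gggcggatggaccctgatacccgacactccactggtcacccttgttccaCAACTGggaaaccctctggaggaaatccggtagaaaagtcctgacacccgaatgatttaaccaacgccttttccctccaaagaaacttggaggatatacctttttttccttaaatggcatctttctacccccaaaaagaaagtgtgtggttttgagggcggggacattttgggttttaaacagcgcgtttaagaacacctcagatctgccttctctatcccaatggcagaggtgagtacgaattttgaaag

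SOX4 held 2 E-boxes, both CAGCTG, and EBF1 held CAGCTG and CAAGTG. PAX5 had CACATG only, LEF1 had CAACTG only, and the TCF3 window, of which 78.3% is G or C, had none of these letters. CANNTG reads as itself on the opposite strand in this search, which covered both strands, and 68.7% of all 35116 RefSeq promoter windows held it. CAGCTG was in 17.9% of them. No match was found in these 5 windows for the octamer ATGCAAAT (in 1.77% of all windows), the SOX core AACAAT (10.1%) or the LEF/TCF sequence CTTTGAT (2.62%), each searched on both strands.

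TCF3 (chromosome 19, 1609290 to 1652605, minus strand, on GRCh38 by GENCODE release 29) encodes the E proteins E12 and E47, which start the B-cell programme. Its level was 965, 921 and 868 CPM in culture replicates 1 to 3, 1490.0, 1574 and 1552 CPM at day 19 and 1070.0, 1201 and 1229 CPM at day 40. The 3 groups did not overlap, day 19 being highest. The day 19 level was 1.68-fold that of culture (log2 fold change 0.74, SE 0.08, adjusted p = 7.18e-06), and the day 40 level 1.27-fold (log2 fold change 0.35, SE 0.08, adjusted p = 0.003). Day 40 was lower than day 19 (log2 fold change -0.40, SE 0.08, adjusted p = 0.0108). That call between the femur times was lost without day 40 replicate 1, day 19 replicate 2 or day 19 replicate 3, with an adjusted p of up to 0.0651.

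EBF1 (chromosome 5, 158695916 to 159099761, minus strand) encodes a pioneer factor that opens B-lineage chromatin. It stood at 34.5, 37.2 and 34.8 CPM in culture, at 79.8, 83.5 and 80.4 CPM at day 19 and at 48.2, 64.2 and 56.5 CPM at day 40. The groups were separate here too, and day 40 replicate 1 was the femur library closest to culture. EBF1 was 2.29-fold as high at day 19 as in culture (log2 fold change 1.19, SE 0.09, adjusted p = 5.99e-07) and 1.59-fold as high at day 40 (log2 fold change 0.67, SE 0.09, adjusted p = 1.20e-04). Day 40 fell below day 19 (log2 fold change -0.53, SE 0.09, adjusted p = 0.00529), a call that held in all 15 alternatives.

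PAX5 (chromosome 9, 36833275 to 37034185, minus strand) encodes the factor that commits cells to the B lineage and keeps them there. Its level was 549, 482 and 496 CPM in culture, 869.6, 796 and 841 CPM at day 19 and 620.1, 836 and 739 CPM at day 40. Every femur library lay above every culture library, while the femur groups overlapped because day 40 replicate 2 reached the day 19 range. PAX5 was 1.64-fold as high at day 19 as in culture (log2 fold change 0.71, SE 0.10, adjusted p = 8.69e-05) and 1.44-fold as high at day 40 (log2 fold change 0.52, SE 0.10, adjusted p = 0.00116). Between day 40 and day 19 it did not pass the test (log2 fold change -0.19, SE 0.10, adjusted p = 0.371).

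SOX4 (chromosome 6, 21592768 to 21598619, plus strand, a gene of a single exon) encodes an HMG-box factor that progenitor B cells need to survive. It had the largest change of the 10 in either comparison with culture. It was measured at 43.8, 47.5 and 40.6 CPM in culture, 135, 129 and 111 CPM at day 19 and 95.8, 97.6 and 90.7 CPM at day 40. No group overlapped another, and the lowest femur library, at 90.7 CPM, stood far above the highest culture library. SOX4 was 2.84-fold as high at day 19 as in culture (log2 fold change 1.51, SE 0.08, adjusted p = 3.57e-08) and 2.15-fold as high at day 40 (log2 fold change 1.11, SE 0.08, adjusted p = 8.83e-07). Its lower level at day 40 than at day 19 passed the test (log2 fold change -0.40, SE 0.08, adjusted p = 0.0147), but the call was lost without day 19 replicate 1, day 19 replicate 2 or day 40 replicate 3, with an adjusted p of up to 0.0817.

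LEF1 (chromosome 4, 108047545 to 108168956, minus strand), also an HMG-box factor, is the nuclear partner of β-catenin in Wnt signalling and is expressed in pro-B cells. It went the other way, standing at 34.5, 35.2 and 35.5 CPM in culture, at 23.6, 24 and 29.4 CPM at day 19 and at 18, 20.6 and 27 CPM at day 40. All femur libraries were below all culture libraries, replicate 3 being the highest of each femur group, and the femur groups overlapped. LEF1 fell at day 19 (log2 fold change -0.45, SE 0.13, adjusted p = 0.0124) and at day 40 (log2 fold change -0.69, SE 0.13, adjusted p = 0.00125), and did not pass the test between day 40 and day 19 (log2 fold change -0.24, SE 0.13, adjusted p = 0.428). The day 19 call was lost without day 19 replicate 1 or replicate 2, with an adjusted p of up to 0.0551. The antisense gene LEF1-AS1 shares 279 exon bases (5.20%) with LEF1, and with no strand setting stated their reads cannot be told apart there; its own level was at most 0.186 CPM in any library.

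**Figure D2:**
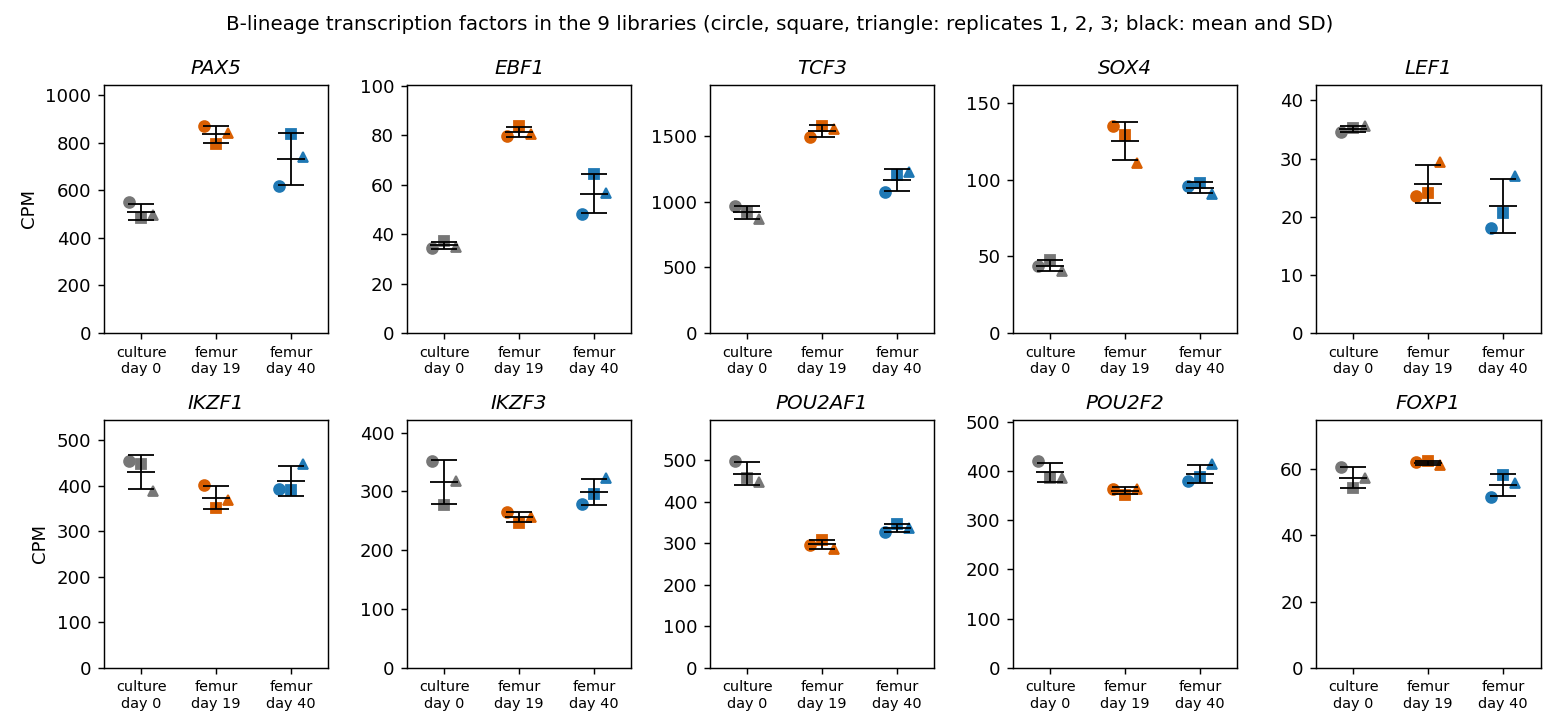
CPM of each factor (vertical axis, from 0, its own scale per panel) in the 3 libraries of culture at day 0, femur at day 19 and femur at day 40; circles, squares and triangles are replicates 1, 2 and 3, and black bars are mean and SD. TCF3, EBF1 and SOX4 are highest at day 19 with day 40 in between, LEF1 and POU2AF1 are lower in all femur libraries, and IKZF1 overlaps between all groups.

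IKZF1 (chromosome 7, 50304068 to 50405101, plus strand) encodes Ikaros, a zinc-finger factor needed for lymphoid development. It stood at 454, 449 and 388 CPM in culture, at 401, 352 and 369 CPM at day 19 and at 392, 391 and 448 CPM at day 40. The groups overlapped in each comparison, and none passed the test, with log2 fold changes of -0.20 at day 19 (SE 0.08, adjusted p = 0.0601), -0.07 at day 40 (SE 0.08, adjusted p = 0.532) and 0.13 for day 40 over day 19 (SE 0.08, adjusted p = 0.491). At day 19 IKZF1 would be called lower with DESeq2, without the filter on low counts, without day 19 replicate 1 or without culture replicate 3, its adjusted p over the alternatives running between 0.0129 and 0.245.

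IKZF3 (chromosome 17, 39757715 to 39864188, minus strand) encodes Aiolos, the Ikaros relative of maturing B cells. Its level was 352, 277 and 318 CPM in culture, 265, 247 and 257 CPM at day 19 and 278, 296 and 322 CPM at day 40. Day 19 lay below the other groups with no overlap, and day 40 overlapped with culture. IKZF3 fell at day 19 (log2 fold change -0.30, SE 0.09, adjusted p = 0.0118), a call lost with total library size, without culture replicate 1 or without day 19 replicate 2 (adjusted p up to 0.082). At day 40 the difference from culture was -0.08 (SE 0.09, adjusted p = 0.484). Day 40 over day 19 gave 0.22 (SE 0.09, adjusted p = 0.209), which was called only when the fit held just the 2 femur groups (adjusted p = 0.0496).

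POU2AF1 (chromosome 11, 111352252 to 111455630, minus strand) encodes OBF1, a B-cell coactivator that binds DNA together with octamer factors. It had the largest fall of the 10 at day 19, with 498, 458 and 447 CPM in culture, 296, 308 and 286 CPM at day 19 and 327, 346 and 335 CPM at day 40. The groups did not overlap, and day 40 lay between culture and day 19. The day 19 level was 0.635 times that of culture (log2 fold change -0.66, SE 0.07, adjusted p = 5.11e-06) and the day 40 level 0.719 times (log2 fold change -0.48, SE 0.06, adjusted p = 1.06e-04). Between day 40 and day 19 POU2AF1 did not pass the test (log2 fold change 0.18, SE 0.06, adjusted p = 0.167), except when the fit held only the femur groups (adjusted p = 0.0496).

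POU2F2 (chromosome 19, 42086110 to 42196585, minus strand) encodes OCT2, the octamer factor of B cells that OBF1 joins. It stood at 419.8, 385 and 386 CPM in culture, at 363, 352 and 363 CPM at day 19 and at 380.0, 387 and 413 CPM at day 40. Day 19 was below the other groups without overlap, but by little. POU2F2 passed no test, with log2 fold changes of -0.14 at day 19 (SE 0.06, adjusted p = 0.0754), -0.01 at day 40 (SE 0.06, adjusted p = 0.878) and 0.13 for day 40 over day 19 (SE 0.06, adjusted p = 0.335). Without culture replicate 2 its day 19 adjusted p was 0.0283.

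FOXP1 (chromosome 3, 70952817 to 71583993, minus strand) encodes a forkhead repressor that early B cells need for recombination and that is high in some large B-cell lymphomas. Its level was 60.6, 54.3 and 57.4 CPM in culture, 62, 62.5 and 61.3 CPM at day 19 and 51.5, 58.2 and 55.9 CPM at day 40. Day 19 was highest, above both other groups without overlap, and day 40 overlapped with culture. FOXP1 passed no test, at 0.11 for day 19 over culture (SE 0.07, adjusted p = 0.204), -0.06 for day 40 over culture (SE 0.07, adjusted p = 0.502) and -0.17 for day 40 over day 19 (SE 0.07, adjusted p = 0.231). Total library size scaling gave 0.19 at day 19, with an adjusted p of 0.0481.

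Levels of different factors can be set beside each other only per length. Per kb of exon, TCF3 was the most abundant factor in each group, at a mean of 151 ± 8.02 CPM per kb in culture, 253 ± 7.16 at day 19 and 192 ± 14.0 at day 40. POU2AF1 came next in culture (63.0 ± 3.61 CPM per kb) ahead of PAX5 (54.6 ± 3.78). In femur cells PAX5 came next (89.5 ± 3.96 at day 19 and 78.4 ± 11.6 at day 40), and POU2AF1 (40 ± 1.52 and 45.3 ± 1.27) was not apart from POU2F2 (39.6 ± 0.749 and 43.4 ± 1.93). IKZF1 and IKZF3 followed, then SOX4, which at day 19 had 21.4 ± 2.12 CPM per kb. EBF1 stood above LEF1 in femur cells (13.1 ± 0.327 and 4.79 ± 0.607 CPM per kb at day 19, 9.11 ± 1.29 and 4.08 ± 0.859 at day 40) and below it in culture (5.74 ± 0.236 for EBF1 and 6.55 ± 0.100 for LEF1). FOXP1, whose exons cover 36714 bases, was lowest per kb. All other neighbours in the order had no overlap between their libraries. With the median length of coding transcripts instead, TCF3 and PAX5 shared the top with overlapping libraries in each group, FOXP1 was the 7th, and LEF1, EBF1 and SOX4 were lowest.

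E proteins work as dimers and are held back by ID proteins, so partners and inhibitors of TCF3 were counted as well. Of 6 tested, 2 were higher and 2 lower at day 19 and at day 40 (median log2 fold changes 0.09 and 0.18, against 0.01 for all genes at each time). For this list and those below, the shares of all genes tested are the measure. These were 26.3% higher and 26.5% lower at day 19, and 23.3% in each direction at day 40. The E protein gene TCF4 rose, with means (± SD, n = 3, as for all means here) of 183 ± 11.9 CPM in culture, 301 ± 7.32 CPM at day 19 and 255 ± 42.8 CPM at day 40 (log2 fold change 0.71, SE 0.10, adjusted p = 1.19e-04 at day 19; 0.48, adjusted p = 0.0027 at day 40). ID3, which encodes an inhibitor of E proteins, rose too, at 41.9 ± 3.88 CPM in culture, 111 ± 18.3 CPM at day 19 and 80.7 ± 4.58 CPM at day 40 (log2 fold change 1.40, SE 0.11, adjusted p = 8.51e-07 at day 19; 0.94, adjusted p = 3.72e-05 at day 40). LMO2 and LYL1 encode partners of E proteins in blood progenitors, and LMO2 is also a germinal-centre gene. LMO2 fell far, with 63.7 ± 20.1 CPM in culture, 0.97 ± 0.379 CPM at day 19 and 3.75 ± 1.49 CPM at day 40 (log2 fold change -6.04, SE 0.34, adjusted p = 3.59e-08 at day 19; -4.06, adjusted p = 3.65e-07 at day 40). LYL1 averaged 89.8 ± 9.63 CPM in culture, 33 ± 1.28 CPM at day 19 and 67.8 ± 7.48 CPM at day 40 (log2 fold change -1.45, SE 0.10, adjusted p = 1.64e-07 at day 19; -0.40, adjusted p = 0.0037 at day 40). TAL1 had 0 counts in all libraries, and ID1 and ID4 were too low to test.

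For LEF1 the list held its co-factors of the TLE family and genes that Wnt signalling is known to induce. Of 9 tested, 4 were higher and 1 lower at day 19, and 3 higher and 1 lower at day 40 (medians 0.43 and 0.15); total library size gave 5 higher at both times. The corepressor gene TLE1 averaged 1.32 ± 0.504 CPM in culture, 4.12 ± 0.348 CPM at day 19 and 4.07 ± 0.619 CPM at day 40 (1.65 at day 19, adjusted p = 2.16e-04; 1.64 at day 40, adjusted p = 3.06e-04). TLE5, a short family member, averaged 333 ± 43 CPM in culture, 450.0 ± 26 CPM at day 19 and 369 ± 24.9 CPM at day 40 and was called at day 19 (0.44, adjusted p = 0.0017) but not at day 40 (0.15, adjusted p = 0.198). TLE3 fell, averaging 124 ± 2.97 CPM in culture, 86.9 ± 3.57 CPM at day 19 and 99.6 ± 13.1 CPM at day 40 (-0.51 at day 19, adjusted p = 3.09e-04; -0.32 at day 40, adjusted p = 0.00872, lost with total library size). AXIN2, a feedback inhibitor induced by β-catenin, averaged 2.92 ± 0.764 CPM in culture, 4.83 ± 0.308 CPM at day 19 and 4.8 ± 0.949 CPM at day 40 (0.72 at day 19, adjusted p = 0.0136; 0.71 at day 40, adjusted p = 0.0167). AXIN2 lost its call without culture replicate 1 at both times, and at day 40 also without culture replicate 2 or day 40 replicate 3. NKD1, LGR5 and SP5 had 0 counts throughout, and TCF7, TCF7L1, RNF43 and ZNRF3 were too low to test.

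Of 5 other SOX genes of groups C to F tested, 1 was higher and 2 lower at day 19, and 2 were higher at day 40 (medians -0.11 and 0.10). SOX6 averaged 0.323 ± 0.0594 CPM in culture, 1.47 ± 0.166 CPM at day 19 and 1.38 ± 0.591 CPM at day 40 (2.17 at day 19, adjusted p = 6.36e-04; 2.07 at day 40, adjusted p = 0.00116); it shares 219 exon bases with C11orf58 on the other strand, whose mean was 159 CPM. SOX9 averaged 25.3 ± 3.85 CPM in culture, 11.2 ± 3.13 CPM at day 19 and 22.1 ± 10.8 CPM at day 40 and was called lower at day 19 only (-1.18, adjusted p = 0.00448; -0.19 at day 40, adjusted p = 0.594). SOX5 averaged 1.62 ± 0.19 CPM in culture, 0.635 ± 0.056 CPM at day 19 and 3.66 ± 1.61 CPM at day 40, lower than culture at day 19 (-1.35, adjusted p = 0.00919) and higher at day 40 (1.18, adjusted p = 0.00833). SOX12, like SOX4 a group C gene and named here after its values were seen, averaged 160.5 ± 14.3 CPM in culture, 168 ± 10.5 CPM at day 19 and 152 ± 9.6 CPM at day 40 and passed no test (0.06 at day 19, adjusted p = 0.52; -0.08 at day 40, adjusted p = 0.425). SOX8, SOX10 and SOX17 had 0 counts, and SOX11, SOX13 and SOX18 were too low to test.

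Ikaros proteins recruit the NuRD complex, which contains CHD4 and the deacetylases HDAC1 and HDAC2. Of 10 family members and partners tested, 2 were higher and 2 lower at both times (medians 0.08 and 0.04); total library size gave 4 higher at day 19. IKZF2, which encodes Helios, the Ikaros relative best known from T cells, stood at 18.2, 17.7 and 15.8 CPM in culture, at 231, 279.6 and 267 CPM at day 19 and at 127, 172 and 159 CPM at day 40. All femur libraries were far above culture, and day 40 was below day 19 without overlap (log2 fold change 3.91, SE 0.12, adjusted p = 4.64e-10 at day 19; 3.14, adjusted p = 4.03e-09 at day 40). IKZF4 (Eos) averaged 7.23 ± 1.1 CPM in culture, 10.8 ± 0.871 CPM at day 19 and 10.2 ± 0.618 CPM at day 40 (0.57, adjusted p = 0.00373; 0.49, adjusted p = 0.0105). HDAC1 averaged 399.6 ± 34.3 CPM in culture, 238 ± 6.85 CPM at day 19 and 276 ± 8.2 CPM at day 40 (-0.75 at day 19, adjusted p = 3.19e-06; -0.53 at day 40, adjusted p = 7.81e-05). HDAC2 averaged 209 ± 13.1 CPM in culture, 164 ± 4.78 CPM at day 19 and 168 ± 1.52 CPM at day 40 (-0.35, adjusted p = 4.88e-04; -0.31, adjusted p = 0.00152).

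Of 3 tested relatives of the octamer factors, 1 was higher and 2 lower at day 19, and 1 was higher at day 40. POU2F1, the widely expressed OCT1, averaged 78.4 ± 16.2 CPM in culture, 117 ± 5.7 CPM at day 19 and 106 ± 4.46 CPM at day 40 (0.58 at day 19, adjusted p = 0.00138; 0.44 at day 40, adjusted p = 0.00957). POU2AF2, an OBF1-like coactivator of tuft cells, averaged 1.93 ± 0.205 CPM in culture, 0.182 ± 0.165 CPM at day 19 and 1.46 ± 0.766 CPM at day 40 and was lower at day 19 (-3.41, adjusted p = 2.58e-04), with -0.39 at day 40 (adjusted p = 0.446). POU6F1 averaged 3.61 ± 0.479 CPM in culture, 2.28 ± 0.0413 CPM at day 19 and 4.4 ± 0.309 CPM at day 40, lower at day 19 (-0.66, adjusted p = 0.00806), with 0.29 at day 40 (adjusted p = 0.178). POU2F3, POU2AF3 and POU4F1 were too low to test.

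Of 8 forkhead relatives tested, 2 were higher and 1 lower at day 19, and 1 each at day 40 (medians 0.02 and -0.06, the day 40 median being 0.02 with total library size). FOXO1, which works with EBF1 and the E proteins in early B cells and is active in germinal centres, fell, averaging 172 ± 13.5 CPM in culture, 94.1 ± 2.39 CPM at day 19 and 135 ± 9.67 CPM at day 40 (log2 fold change -0.87, SE 0.07, adjusted p = 1.48e-06 at day 19; -0.34, adjusted p = 0.00247 at day 40). LINC00598 shares 269 exon bases (4.32%) with it. FOXN3 averaged 81.6 ± 8.24 CPM in culture, 97.7 ± 4.99 CPM at day 19 and 101 ± 4.93 CPM at day 40 (0.26 at day 19, adjusted p = 0.0147, lost without day 19 replicate 2 or culture replicate 3; 0.30 at day 40, adjusted p = 0.0074). FOXP4 averaged 86.4 ± 10.8 CPM in culture, 107 ± 11.3 CPM at day 19 and 95.4 ± 10.9 CPM at day 40 and was called at day 19 (0.31, adjusted p = 0.03) with overlapping libraries, a call lost without any of 4 libraries (adjusted p up to 0.112). FOXP2 had 0 counts and FOXP3 was too low to test.

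Among 27 other B-cell transcription factors, 8 were higher and 14 lower at day 19 (median -0.16), where 26.3% and 26.5% of all genes were. At day 40, 8 were higher and 12 lower (median -0.15), against 23.3% of all genes in each direction. Between the femur times, 5 were higher and 3 lower at day 40 than at day 19, against 3.23% and 1.45% of all genes. BCL6, the repressor that defines germinal-centre B cells, averaged 428 ± 38.1 CPM in culture, 56 ± 2.88 CPM at day 19 and 135 ± 3.89 CPM at day 40 (log2 fold change -2.93, SE 0.08, adjusted p = 1.68e-10 at day 19; -1.67, adjusted p = 1.27e-08 at day 40). ZEB2, a zinc-finger homeobox factor, rose, averaging 25.4 ± 1.21 CPM in culture, 119 ± 7.33 CPM at day 19 and 87 ± 2.36 CPM at day 40 (2.22, adjusted p = 4.64e-10; 1.77, adjusted p = 4.87e-09). MYB, a factor of progenitor cells, rose as well, averaging 82.5 ± 7.96 CPM in culture, 253 ± 5 CPM at day 19 and 167 ± 10.8 CPM at day 40 (1.62, adjusted p = 1.31e-08; 1.02, adjusted p = 9.82e-07). KLF2, which holds lymphocytes in quiescence, averaged 0.26 ± 0.169 CPM in culture, 50.3 ± 1.07 CPM at day 19 and 51 ± 18.8 CPM at day 40, with 18 counts in all in culture (7.61, adjusted p = 1.07e-08; 7.63, adjusted p = 1.92e-08). ERG had 0 counts.

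Genes that PAX5 or EBF1 are known to activate did not move in 1 direction. Of 17 tested, 7 were higher and 8 lower at day 19 (8 and 8 with total library size), and 6 were higher and 7 lower at day 40 (medians -0.08 and 0.05; the day 19 median was 0.01 with total library size). IGLL1, the λ5 chain of the surrogate light chain, stood at 4.12, 4.87 and 3.57 CPM in culture, at 274, 336 and 354 CPM at day 19 and at 122, 192 and 144 CPM at day 40. Femur and culture were widely apart and day 40 lay below day 19 (log2 fold change 6.27, SE 0.20, adjusted p = 4.64e-10 at day 19; 5.20, adjusted p = 3.92e-09 at day 40). CD24, a surface antigen of immature B cells, averaged 206 ± 35.8 CPM in culture, 700.2 ± 7.58 CPM at day 19 and 549.5 ± 64.7 CPM at day 40 (1.76, adjusted p = 1.83e-07; 1.41, adjusted p = 2.06e-06). CD22, an inhibitory co-receptor of the B-cell receptor, fell, averaging 972 ± 113 CPM in culture, 205 ± 4.65 CPM at day 19 and 425 ± 51.4 CPM at day 40 (-2.24, adjusted p = 9.96e-09; -1.19, adjusted p = 2.36e-06). RASGRP3, a Ras activator downstream of that receptor, fell with 153 ± 20.4 CPM in culture, 30.7 ± 3.96 CPM at day 19 and 60.4 ± 2.61 CPM at day 40 (-2.32, adjusted p = 1.09e-08; -1.34, adjusted p = 1.16e-06). CR2 was too low to test.

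Of 9 tested genes that PAX5 is known to repress, 2 were higher and 5 lower at day 19, and 3 higher and 4 lower at day 40 (medians -0.52 and -0.13). Both medians stayed the same with the 1 gene at 0 counts in culture set to a floor of 3 counts there. ITGAL, the αL integrin chain, averaged 145 ± 5.62 CPM in culture, 27.2 ± 3.27 CPM at day 19 and 37.8 ± 2.6 CPM at day 40 (log2 fold change -2.42, SE 0.09, adjusted p = 1.80e-09 at day 19; -1.94, adjusted p = 1.27e-08 at day 40). EMB, a transmembrane glycoprotein, averaged 309 ± 17.3 CPM in culture, 180.0 ± 5.33 CPM at day 19 and 227 ± 3.56 CPM at day 40 (-0.78, adjusted p = 7.02e-07; -0.44, adjusted p = 1.16e-04). JCHAIN, the joining chain of secreted antibodies, averaged 1116 ± 207 CPM in culture, 469 ± 41.6 CPM at day 19 and 631 ± 64.1 CPM at day 40 (-1.25, adjusted p = 5.22e-06; -0.82, adjusted p = 2.13e-04) and overlaps ENAM on the other strand by 87 exon bases. NOTCH1, the T-lineage receptor, averaged 121 ± 23.2 CPM in culture, 75.7 ± 3.23 CPM at day 19 and 111 ± 1.82 CPM at day 40 and was lower at day 19 (-0.68, adjusted p = 2.84e-04), with -0.13 at day 40 (adjusted p = 0.347). The genes called higher, named here after their values were seen, were all low. GRB7 was at 2.38 at day 19 (adjusted p = 0.0164) and 2.75 at day 40 (adjusted p = 0.00661). SDC1 had 32 counts at day 19 and 27 at day 40, against 0 in culture. With a floor of 3 counts in place of the 0, the scaled ratios were 11.2 and 7.84. These ratios make no allowance for counting error in the femur counts. PRDM1 was higher at day 40 (2.155, adjusted p = 0.00641), with 1.32 at day 19 (adjusted p = 0.0813). CD28 had 0 counts, and CSF1R, FLT3, CCR2 and CD44 were too low to test.

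Of 8 tested genes known as targets of octamer factors and OBF1, 1 was higher and 6 lower at day 19, and 1 higher and 5 lower at day 40 (medians -1.10 and -0.52), where 26.5% and 23.3% of all genes were lower. Total library size gave 4 lower at day 40. The day 19 median fell in a gap between S1PR2 (-1.79) and SPIB (-0.42). The day 40 median fell in a gap between CXCR5 (-0.84) and BTK (-0.19). Without CXCR5, whose counts are uncertain, both medians would be less negative. SPIB and BTK are named here after their values were seen. The gene called higher, BCL2, named here after its values were seen, was at 0.26 at day 19 (adjusted p = 0.0115) and 0.33 at day 40 (adjusted p = 0.0036). S1PR2, which confines B cells to the germinal centre, averaged 271 ± 22 CPM in culture, 78.6 ± 6.55 CPM at day 19 and 105 ± 11.9 CPM at day 40 (log2 fold change -1.79, SE 0.10, adjusted p = 2.50e-08 at day 19; -1.36, adjusted p = 3.86e-07 at day 40) and shares 83 exon bases with DNMT1, whose mean was 770 CPM. CXCR5, the receptor for the follicle chemokine, averaged 19 ± 0.795 CPM in culture, 5.36 ± 0.701 CPM at day 19 and 10.6 ± 0.155 CPM at day 40 (-1.83, adjusted p = 1.24e-07; -0.84, adjusted p = 7.81e-05). Since 88.6% of CXCR5 exon bases overlap BCL9L on the other strand, its counts are uncertain. TNFRSF17, the BCMA receptor of plasma cells, averaged 7.95 ± 2.3 CPM in culture, 1.36 ± 0.306 CPM at day 19 and 2.64 ± 0.438 CPM at day 40 (-2.54, adjusted p = 6.26e-06; -1.59, adjusted p = 2.11e-04). FCER2 (CD23) was low, at 0.731 ± 0.281 CPM in culture, 0.164 ± 0.0748 CPM at day 19 and 0.281 ± 0.0707 CPM at day 40 (-2.15, adjusted p = 0.00219; -1.37, adjusted p = 0.0161, the day 40 call being lost in 4 alternatives with an adjusted p of up to 0.0857). CD36, CR2 and CCR7 were too low to test.

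**Figure D3:**
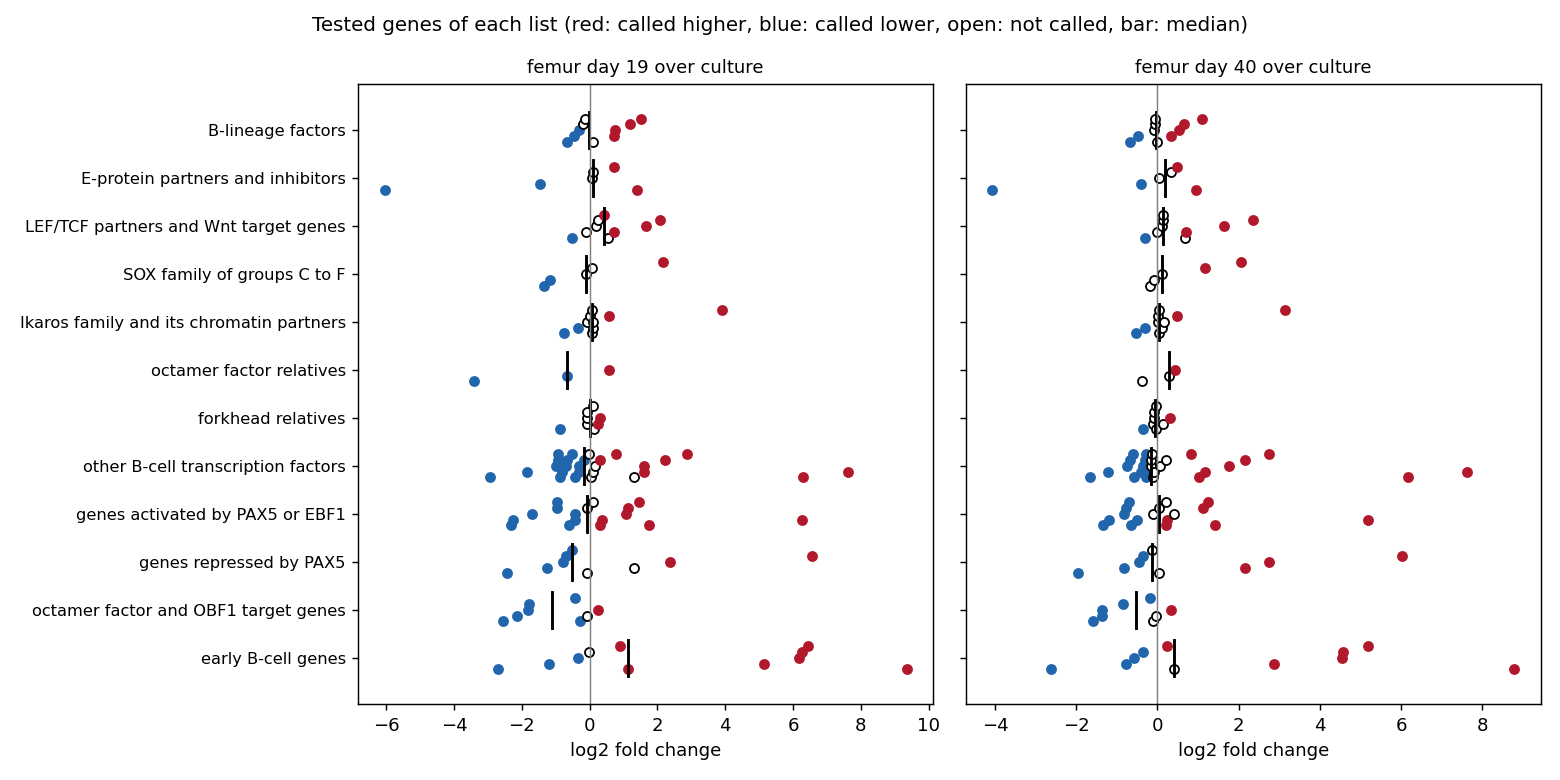
Log2 fold change over culture (horizontal axis) of each tested gene of the 10 factors and of 11 companion lists, at day 19 (left) and day 40 (right); red and blue points were called higher and lower, open points were not called, and bars are list medians. The largest positive point in each panel is CD9, an early B-cell gene, and the next is KLF2, of the other B-cell transcription factors. The early B-cell genes have a median of 1.15 at day 19. The octamer target genes have a median of -1.10, in a gap between S1PR2 (-1.79) and SPIB (-0.42). Values of genes with 2 or fewer counts in culture depend on the fit and are not bounds.

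Early B-cell genes, a list of genes known from progenitor stages and not a list of targets of the factors, moved in both directions. Of 11 tested, 7 were higher and 3 lower at day 19, and 6 higher and 4 lower at day 40 (medians 1.15 and 0.40), where 26.3% and 23.3% of all genes were higher and 26.5% and 23.3% lower. At day 40, 5 were lower than at day 19 (median -0.65), against 1.45% of all genes. By edgeR, DESeq2 and voom 0 were higher at day 40 than at day 19, or 1 by each tool at an unadjusted p under 0.05. Besides IGLL1, the recombinase gene RAG1 stood at 0.509, 0.501 and 0.271 CPM in culture, at 11.3, 16.9 and 17.2 CPM at day 19 and at 3.59, 3.22 and 2.54 CPM at day 40. Its groups were far apart, day 19 being highest and day 40 between (log2 fold change 5.15, SE 0.27, adjusted p = 2.50e-08 at day 19; 2.87, adjusted p = 1.09e-05 at day 40). RAG2, the other subunit, had 162 counts over the day 19 libraries and 64 over the day 40 libraries, against 2 in culture, ratios of 85.1 (95% counting interval 23.2 to 708.8) and 27.9 (7.41 to 235.1) after scaling. RAG1 and RAG2 share 588 exon bases on opposite strands. CD9, a tetraspanin of progenitor B cells and many other cells, had 1465 counts at day 19 and 1210 at day 40, against 2 in culture, ratios of 770 (213 to 6362) and 527 (146 to 4357). These exact binomial intervals cover counting error only. The genes called lower, named here after their values were seen, were MME (CD10), at -0.35 at day 19 (adjusted p = 0.00375) and -0.57 at day 40 (adjusted p = 1.57e-04), CD99, at -1.19 (adjusted p = 4.55e-05) and -0.77 (adjusted p = 0.00142), and CRLF2, at -2.70 (adjusted p = 0.00193) and -2.62 (adjusted p = 0.00208). CD38 was lower at day 40 (-0.34, adjusted p = 0.0139), with -0.03 at day 19 (adjusted p = 0.833). CD34 and KIT, genes of earlier progenitors, were too low to test in any group.

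**Figure D4:**
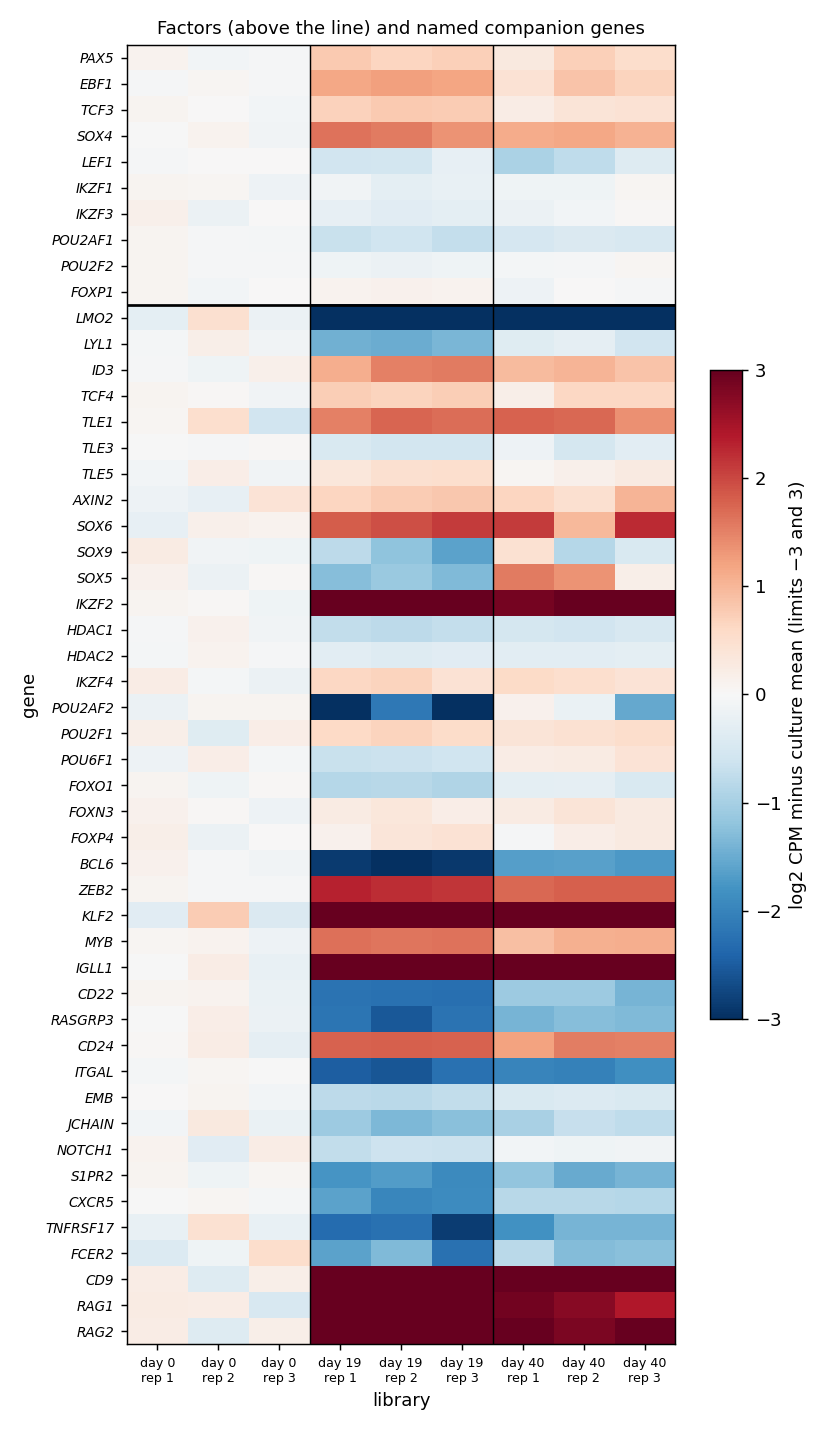
Log2 CPM minus the mean of the 3 culture libraries (colour, limited to -3 and 3) of the 10 factors, above the line, and of the named companion genes (rows) in the 9 libraries (columns). Femur libraries show TCF3, EBF1, PAX5 and SOX4 in red together with MYB, ID3, ZEB2, IGLL1, RAG1 and RAG2, and POU2AF1 in pale blue together with stronger blues of BCL6, LMO2, S1PR2 and CXCR5.

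For SOX4, EBF1 and TCF3, which had the largest fold changes from culture at day 19, the genes with the most alike pattern were found by Pearson correlation of log2 CPM over the 9 libraries, whose groups alone produce high values. SOX4 was followed most closely by SDCBP2-AS1 (r = 0.996), ARID3A (0.992) and KREMEN1 (0.992). SDCBP2-AS1, at a mean of 5.06 CPM, shares 187 exon bases with FKBP1A on the other strand, whose mean was 233 CPM, so its counts are uncertain. ARID3A, which encodes the B-cell factor Bright, averaged 7.49 CPM in culture, 106 CPM at day 19 and 60.0 CPM at day 40. EBF1 was most alike to RIMS3 (0.992), TNFRSF21 (0.990) and PUS1 (0.989), of which TNFRSF21, the death receptor DR6, averaged 13.0, 50.3 and 25.7 CPM at day 0, day 19 and day 40. TCF3 was most alike to SYMPK (0.995), TNFRSF21 (0.994) and DOK3 (0.991).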

How the data were processed

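Bulk RNA-seq was measured in 9 libraries of DOHH2 cells, 3 per group, with groups taken from the day in the labels. The authors deposited raw read counts, a whole number per gene and library. The submitters' processing notes name STAR 2.5.2a, featureCounts 1.4.6, FastQC 0.11.5 and DESeq2 1.40.1, with hg38 as the build. Not given in the sources used here: the annotation, the strand setting, trimming, and what was done with mouse reads or reads with several matches. Whether any mouse reads were counted in femur libraries was not tested. Unstranded counting would mix reads of overlapping genes, so overlaps with other measured genes are given beside the values they could touch most.

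Symbols, exon lengths and positions came from GENCODE release 29 on GRCh38, which named 57980 of 58243 identifiers, and promoters from RefSeq. Tests used edgeR 4.0.16 in R 4.3.3: filterByExpr left 15163 genes, libraries were scaled by TMM, and the two-sided quasi-likelihood F-test was run with 1 coefficient per group over all 9 libraries. Adjustment was by Benjamini-Hochberg over all genes tested, with an adjusted p under 0.05 called. Adjusted p-values in the text come from this test unless another tool is named. Log2 CPM for correlations used a prior count of 2. Depth was 21071239 to 29456271 counts per library, and a count of 0 was taken to allow up to 3 counts over a group. Intervals cover counting error only, and this floor covers only that of the count of 0.

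Alternatives were total library size scaling, DESeq2 1.42.0, voom in limma 3.58.1, no low-count filter, only the groups compared, a replicate block, each library left out in turn, and, added after seeing the data, median transcript length for the order of levels. The procedure was also run on simulated counts with fewer changed genes than were called here, and no result in the text rests on that run. The 10 factors, the companion lists and the tests were chosen with earlier results of these data known. All 10 factors are described, and 2 of the cell type marker genes are not reported here. From each companion list up to 4 genes were named, those with the smallest p in a comparison with culture among the called ones, plus, by name, those at 0 or untested. A few others are marked as named after their values were seen. Some genes, such as SPIB, stood in several lists and were counted in each. For the 3 factors with the largest fold change in either comparison with culture, the 3 genes with the highest correlation were named.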

Additional observations from a re-analysis of the deposited data

Results flagged for a closer look

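With 3 libraries per group no single library was examined as an outlier. Genes are listed here because their change from culture differed between the femur times, by edgeR's quasi-likelihood test of day 40 over day 19 (Benjamini-Hochberg adjusted p under 0.05, 3 libraries each), given as log2 fold changes of day 40 over day 19. Of all genes tested, 4.68% were called in that comparison. The companion genes were those named above, picked by the smallest p against culture in these same libraries. That choice favours genes with day 19 values far from culture, and so a smaller difference at day 40.

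Among the factors themselves the higher levels in femur cells were smaller at day 40 for EBF1 (-0.53, adjusted p = 0.00529), TCF3 (-0.40, adjusted p = 0.0108) and SOX4 (-0.40, adjusted p = 0.0147). The same held for these companion genes that were higher than culture at both times: ID3 (-0.46), IKZF2 (-0.77), ZEB2 (-0.45), MYB (-0.60), IGLL1 (-1.07), RAG1 (-2.27) and RAG2 (-1.61).

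Lower levels in femur cells were nearer to culture at day 40 for LMO2 (1.98), LYL1 (1.04), FOXO1 (0.52), BCL6 (1.26), CD22 (1.05), RASGRP3 (0.98), ITGAL (0.48), EMB (0.34), S1PR2 (0.42) and CXCR5 (0.98). POU2AF2 (3.02), POU6F1 (0.94) and NOTCH1 (0.55) were lower than culture at day 19 and were not called at day 40. SOX5 (2.53) was lower than culture at day 19 and higher at day 40. The adjusted p of these calls lay between 5.34e-06 (BCL6) and 0.0336 (ID3), and the calls of LMO2, ID3, POU2AF2, ITGAL, EMB, NOTCH1, S1PR2 and RAG2, like those of TCF3 and SOX4, were lost in at least 1 alternative.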

How the results depend on the processing

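PAX5, EBF1, TCF3, SOX4 and POU2AF1 kept direction and call in both comparisons with culture under all 15 alternatives, as did LEF1 at day 40, and no called value of a factor changed sign. With 1 library left out, the factors called numbered 5 to 8 at day 19, 6 at day 40 and 1 to 3 for day 40 over day 19 (1, EBF1, without day 19 replicate 2); with only the femur groups in the fit they were 5. With 1 library left out, all genes called ranged from 6804 to 8127 at day 19 and from 5940 to 6778 at day 40. For day 40 over day 19, where the main count was 710, it was 1324 with no filter, 1100 with only the femur groups, and 280 to 1193 with 1 library left out (280 without day 19 replicate 3, 285 without day 19 replicate 2, 381 and 420 without day 40 replicates 1 and 2, 1193 without culture replicate 2); the cause was not tested. Replicate numbers follow accession order and mark sampling periods, not a pairing. A replicate block gave 7, 6 and 3 factors and 8319, 7361 and 966 genes and changed no factor's call. Deviations of same-numbered libraries correlated at 0.0329, -0.05 and 0.118 at day 19 with culture, at 0.0809, 0.202 and 0.168 at day 40 with culture, and at 0.101, 0.132 and 0.305 between femur times; in the last 2 comparisons each library correlated best with its own number, a hint from the data and not from the design.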
